A study of Homo sapiens with 24 samples.

Results

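This report describes the order of mRNA decay within CNOT3-depleted cells, without the control cells of the same study. Its members were the genes with a T-to-C conversion above 0 in both sgCNOT3 libraries at 0 h of the chase, which were 12449 of the 19798 genes in the deposited table (62.9%). CNOT3 is a subunit of CCR4-NOT, the main cytoplasmic deadenylase, which shortens the poly(A) tail of an mRNA and so opens it to decapping and decay. Cells can lack this subunit and still degrade mRNA, since other deadenylases, decapping and endonucleases act beside it. AU-rich elements and other sites in the 3′ UTR, codon content and translation are all known to set how long an mRNA lasts. Messages of inducible regulators are generally short lived, and those of metabolic enzymes and ribosomal proteins generally last long.

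The cells were HEK293T, a human embryonic kidney line. All 12 libraries used here came from cells transduced with lentiCRISPR_v2 that carried a guide against CNOT3 (genotype CNOT3-knockout in the labels), selected with puromycin and not described as a single clone. RNA was labelled with 75 µM 4-thiouridine (4-SU) over 24 h, renewed every 3 h, until 10 mM UTP was added to end labelling. Cells were taken at 0, 1, 2, 4, 8 and 12 h after UTP, with 2 replicates at each time. In SLAM-seq, iodoacetamide makes an incorporated 4-SU read as C, so conversion is the share of a gene's signal that carries T-to-C changes and marks RNA made before the chase. This share also falls when new unlabelled RNA is made, and it can rise without any change in stability, so a rising value is not a decay rate. The labels name a pair of CNOT3 guides but not which library received which, and they do not say that replicates were separate cultures. P-values therefore reflect only how far these libraries differ, and that spread may be technical.

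Both guides are shown because they define the cells, with the 3 bases of the PAM in capitals. Each matched 1 site in GRCh38, and both lie in coding exons of CNOT3 (ENSG00000088038.20, chr19:54137749-54155681, plus strand). Guide 1 lies at chr19:54143665-54143684 on the plus strand, in exon 5 of the 18 exons of ENST00000221232.11, and guide 2 at chr19:54145702-54145721 on the minus strand, in exon 8.
sgCNOT3-1: gagggaccaaatcaagacatGGG
sgCNOT3-2: tcttgcggatggcgtcaacgAGG

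The AU-rich heptamer TATTTAT is shown in 7 of the 12 most clearly short-lived mRNAs, in which it was found, because AU-rich elements of this kind are known to recruit decay factors. Each line gives 27 bases of the 3′ UTR on the mRNA strand (GRCh38, GENCODE release 44) with the heptamer in capitals. The sites lie at chr14:63598099-63598125 (WDR89, minus strand), chr1:228393710-228393736 (TRIM11, minus), chr1:181091981-181092007 (IER5, plus), chr1:248918546-248918572 (PGBD2, plus), chr7:65400622-65400648 (ZNF92, plus), chr1:58780820-58780846 (JUN, minus) and chr4:87136790-87136816 (AFF1, plus). IER5, PGBD2 and AFF1 held 4 such heptamers each, ZNF92 held 2, and WDR89, TRIM11 and JUN held 1 each. The heptamer was also found in 36.0% of all tested genes with a 3′ UTR, and in 55.6% of those called with a half-life under 4 h. A match is a description of these letters and not evidence that a factor binds there.
WDR89: aaaatgaaaaTATTTATaataggactc
TRIM11: ccctctgcttTATTTATtgtaagcatt
IER5: cataataatgTATTTATagaattaaac
PGBD2: tataaattaaTATTTATattcatttat
ZNF92: ttaggtaagtTATTTATatataacttt
JUN: tgcttatgaaTATTTATaacagcattc
AFF1: aaatattttaTATTTATagcaaaacta

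Of the members, 11474 (92.2%) were above 0 in at least 10 of the 12 libraries and were tested, and 10109 were above 0 in all 12. The other 975 were not tested, of which 150 were above 0 in at most 5 libraries. Among them were 63 genes above 0 in all 8 libraries from 0 to 4 h and at 0 in 3 or 4 of the libraries at 8 and 12 h, so the filter also removed some mRNAs that had lost their label. Median conversion over the tested genes was 36.1% and 33.0% at 0 h (replicates 1 and 2), 34.3% and 33.8% after 1 h, 29.2% and 18.3% after 2 h, 20.8% and 16.3% after 4 h, 16.5% and 15.4% after 8 h, and 8.47% and 9.83% after 12 h. The replicates stood far apart at 2 h and less so at 4 h, which is described further on and touches every early value. Read depth is unknown, since the table holds no counts, and an exact 0 can mean no converted read or no read at all. Of 8 markers fixed for HEK293T cells 7 were above 0 in all 12 libraries and PAX2 in 4, and of 11 markers of other cell types 9 were above 0 in 0 to 7 libraries and the others in all 12. CNOT3 itself had a conversion of 62.1% and 81.0% at 0 h, 11.9% and 16.7% after 4 h, 20.8% and 14.4% after 8 h, and 28.6% and 30.3% after 12 h (slope −0.111 ± 0.060, SE, adjusted p = 0.112). It was lower than at 0 h at 4 h (adjusted p = 0.0494) and at 8 h (adjusted p = 0.0369), but not at 12 h (adjusted p = 0.0992). A share measured at the 3′ end does not measure editing at a guide site and does not check the knockout.

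Most mRNAs still lost their label during the chase. A slope of log2 conversion on time, given below in log2 units per h, was fitted to the 12 libraries with limma, after adding a pseudocount of 0.351 percentage points, with Benjamini-Hochberg adjustment across every tested gene and a threshold of 0.05. By this test the slope was called below 0 for 8192 genes (71.4%), termed falling, and above 0 for 23 (0.200%), termed rising. The estimated slope, called or not, was above 0 in 574 genes. The median slope was −0.139, which on a straight line corresponds to a half-life of 7.21 h. Estimated half-lives were under 2 h for 144 genes (1.26%), 2 to 4 h for 2525 (22.0%), 4 to 8 h for 3574 (31.1%), 8 to 12 h for 1537 (13.4%) and 12 to 24 h for 1724 (15.0%). For 1970 genes (17.2%) the estimate was above 24 h or the slope was not below 0. The spread between genes was thus wide, with a 10th percentile of −0.339 (2.95 h) and a 75th percentile of −0.0634 (15.8 h). Slopes fitted to each replicate alone had the same sign in 91.7% of genes and a Spearman correlation of 0.756 across genes, which are not independent replicates. These slopes are absolute, and with each library centred on its median the median slope became 0.010, by construction, with 2458 genes falling and 3218 rising relative to the median gene.

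A half-life under 4 h was called for 187 genes (1.63%) by a one-sided test that the slope lay below −0.25. Their median conversion was 57.1% and 48.6% at 0 h, 34.4% and 21.9% after 2 h, 16.1% and 13.2% after 4 h, and 0.699% and 0.837% after 12 h. In all 187 both 12 h libraries lay below both 0 h libraries, as they did in 9927 (86.5%) of all tested genes, and the test itself selects for this. Of the 187, 28 were listed at 0 in both 12 h libraries, out of 85 such tested genes. The median slope of these genes was −0.465 (2.15 h). Because low values weigh on the slope, this count depended on the pseudocount, and none passed when it was 10 times larger, which shortens the distance between a low value and a high one. It was 110 without 0 h replicate 1, 110 without 1 h replicate 1, 124 without 1 h replicate 2 and 102 without 12 h replicate 1.

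**Figure D1:**
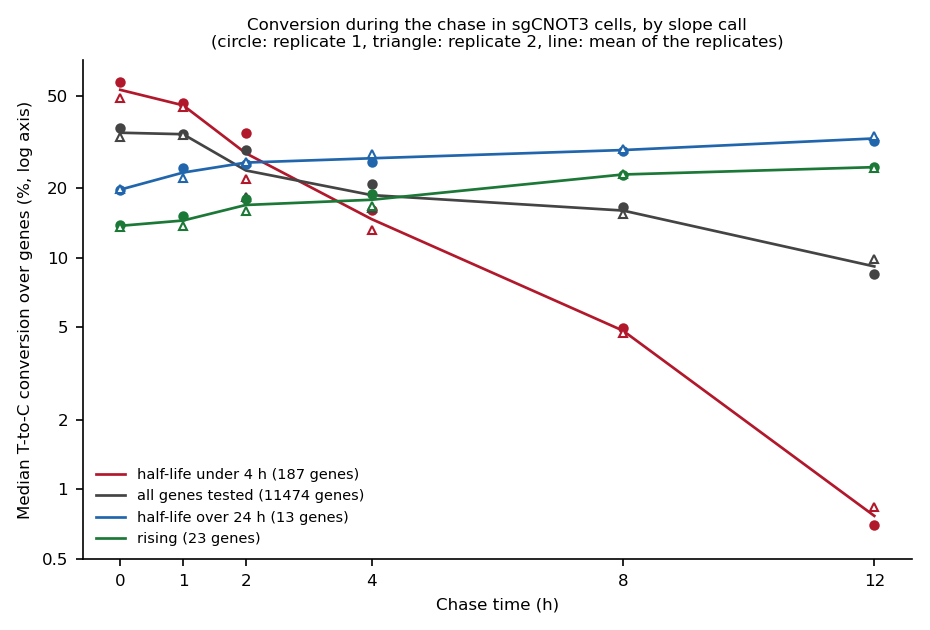
Median T-to-C conversion over genes (percent, log axis) against chase time (h) for genes called with a half-life under 4 h, all tested genes, genes called with a half-life over 24 h and rising genes, with 1 point per replicate and a line through the mean. The group under 4 h starts highest, at 57.1% and 48.6%, and ends lowest, at 0.699% and 0.837%, while the rising group goes from 13.8% and 13.6% to 24.6% and 24.4%, and at 2 h the replicates of all tested genes lie apart.

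The 12 genes with the smallest p for a half-life under 4 h all fell in both replicates. WDR89 encodes a WD repeat protein (ENSG00000140006.12). Its conversion was 62.8% and 32.1% at 0 h, 39.7% and 40.6% after 1 h, 21.7% and 15.2% after 2 h, 12.8% and 10.2% after 4 h, 2.07% and 2.67% after 8 h, and 0.240% and 0.218% after 12 h. Its slope was −0.527 ± 0.027 (SE, half-life 1.90 h, adjusted p for a half-life under 4 h = 0.00123). The replicates at 0 h differed widely, yet every later value lay below every value of the time before it from 1 h on. KLHL9, an adaptor of a cullin ubiquitin ligase, had 54.1% and 50.7% at 0 h, 52.8% and 48.0% after 1 h, 45.4% and 40.2% after 2 h, 22.9% and 19.1% after 4 h, 6.35% and 4.70% after 8 h, and 1.24% and 0.792% after 12 h (slope −0.458 ± 0.021). TRIM11, a ubiquitin ligase, had 65.5% and 56.8%, 56.6% and 55.5%, 37.4% and 33.7%, 20.5% and 18.4%, 4.96% and 5.01%, and 2.38% and 1.51% at the same times (slope −0.418 ± 0.018). Replicates of KLHL9 and TRIM11 stayed close at 2 h and 4 h.

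The immediate early mRNAs JUN, IER5 and GADD45B were among these 12 genes. JUN, a subunit of the transcription factor AP-1, had 34.2% and 24.2% at 0 h, 27.5% and 31.4% after 1 h, 19.9% and 22.6% after 2 h, 8.00% and 11.4% after 4 h, 1.57% and 1.66% after 8 h, and 0.264% and 0.573% after 12 h (slope −0.478 ± 0.028, half-life 2.09 h, adjusted p for a half-life under 4 h = 0.00172). IER5, an immediate early response gene, had 59.5% and 46.7% at 0 h, 57.0% and 53.9% after 1 h, 42.2% and 22.5% after 2 h, 25.9% and 12.1% after 4 h, 4.13% and 2.77% after 8 h, and 0.484% and 0.701% after 12 h. GADD45B, induced by stress and growth arrest, had 37.1% and 32.8%, 43.97% and 28.4%, 19.5% and 22.5%, 8.53% and 9.30%, 2.93% and 2.32%, and 0.817% and 0.214%. In all 3 the libraries at 8 and 12 h lay below every earlier library. ARRDC3, an arrestin-domain protein, fell from 45.9% and 55.6% at 0 h to 0.242% and 0.543% after 12 h (slope −0.525 ± 0.030).

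The remaining 5 were PGBD2, ZNF92, ZNF146, OSR2 and AFF1. PGBD2, derived from a piggyBac transposase, had the most negative slope of the 12 (−0.624 ± 0.043, half-life 1.60 h), with 100% and 73.7% at 0 h, 9.38% and 6.87% after 4 h, and 0.556% and 0% after 12 h. OSR2, a developmental transcription factor, had 74.2% and 77.8% at 0 h, 5.17% and 7.46% after 4 h, and was listed at 0 in both 12 h libraries (−0.623 ± 0.046). AFF1, a scaffold of the super elongation complex, had 71.4% and 70.0% at 0 h and 0% and 1.12% after 12 h (−0.557 ± 0.038). These 3 slopes rest in part on a value at 0, so their size depends on the pseudocount. The zinc finger genes ZNF92 (−0.465 ± 0.026) and ZNF146 (−0.395 ± 0.018) ended at 0.791% and 0.657% and at 1.42% and 1.75% after 12 h.

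**Figure D2:**
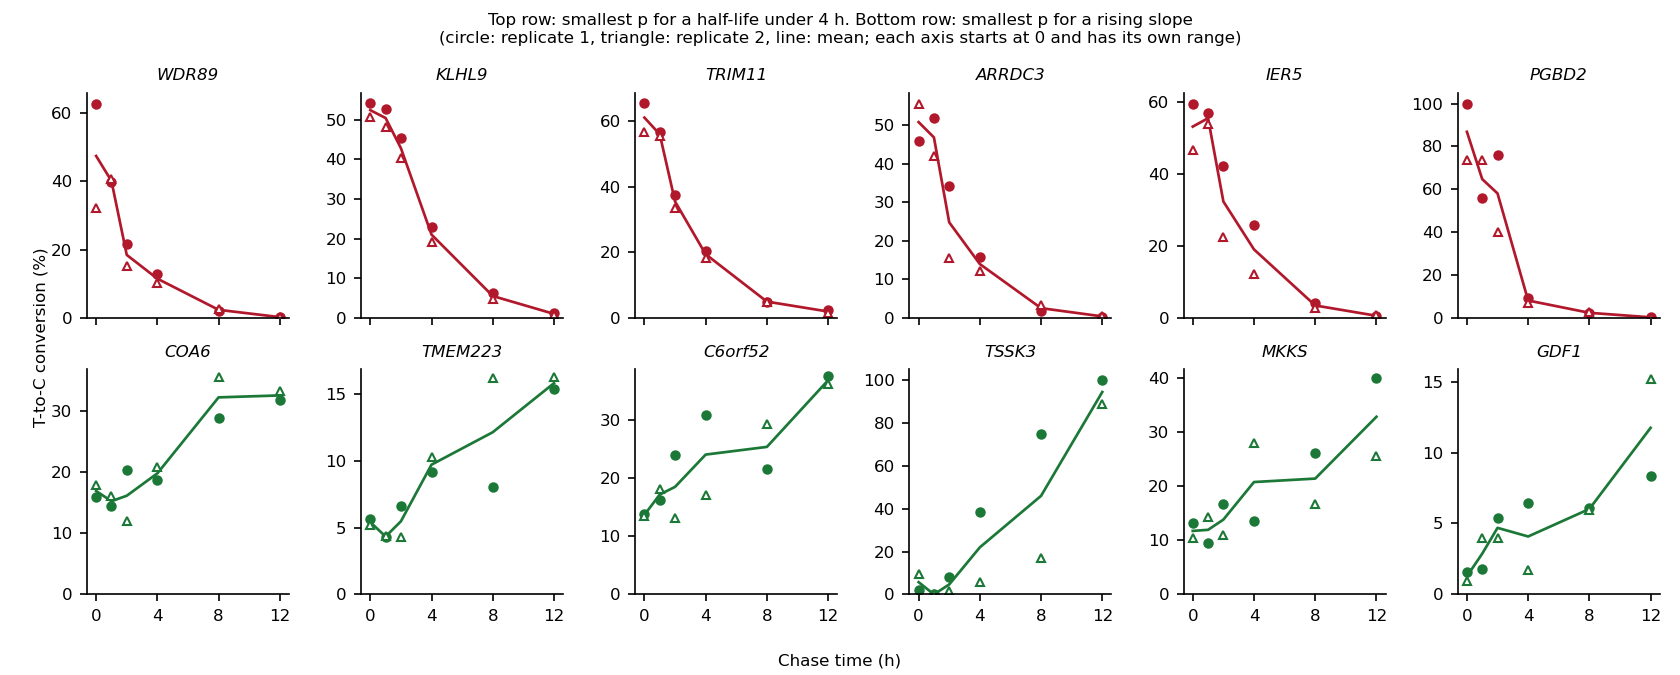
T-to-C conversion (percent, each axis from 0 with its own range) against chase time (h) for 6 genes called with a half-life under 4 h (top row) and 6 rising genes (bottom row), with replicate 1 as circles, replicate 2 as triangles and the mean as a line. At 12 h TRIM11 is the highest of the top genes, at 2.38% and 1.51%, while TSSK3 climbs from 2.04% and 9.41% to 100% and 88.9%.

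Gene groups differed widely in how fast they lost label. Of 38 tested immediate early and AU-rich mRNAs all 38 fell and 11 were called under 4 h, with a median slope of −0.369 (2.71 h) beside −0.139 (7.21 h) over all genes. Of 379 zinc finger (ZNF) genes 348 fell and 35 were called under 4 h (median −0.298, 3.35 h), and of 96 homeobox and developmental transcription factors 84 fell and 7 were called (−0.288, 3.48 h). ZNF genes were 18.7% of the genes called under 4 h and 3.34% of all tested genes. Of 32 p53 targets 27 fell and 1 was called under 4 h (−0.233, 4.30 h), and of 25 genes of the integrated stress response 23 fell and 2 were called (−0.222, 4.50 h). The background over all tested genes was 71.4% falling and 1.63% called under 4 h.

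Within these groups the members were far apart. Among immediate early and AU-rich mRNAs above 0 in all 12 libraries, ARRDC3 and IER5 had the lowest slopes, and TXNIP and SOX4 the highest. TXNIP, an inhibitor of thioredoxin, had 19.5% and 21.1% at 0 h, 27.1% and 29.0% after 2 h, 17.5% and 20.3% after 4 h, and 2.21% and 2.78% after 12 h (slope −0.233 ± 0.036, adjusted p = 0.000125). SOX4, a developmental transcription factor, had 9.73% and 10.7% at 0 h, 19.1% and 15.4% after 2 h, 24.0% and 17.0% after 4 h, and 2.34% and 3.13% after 12 h (−0.151 ± 0.048, adjusted p = 0.0139). Both were higher at 2 h than at 0 h in both replicates before they fell. Among ZNF genes, ZNF230 went from 78.7% and 36.4% at 0 h to 0.313% and 0.631% after 12 h (−0.537 ± 0.050) and ZNF30 from 57.1% and 44.4% to 0.282% and 0.296% (−0.527 ± 0.037). At the other end ZNF90 had 12.9% and 13.9% at 0 h and 13.5% and 13.4% after 12 h (0.002 ± 0.015, adjusted p = 0.903), and ZNF205 had 3.70% and 2.63% and then 5.45% and 6.15% (−0.002 ± 0.050, adjusted p = 0.975).

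Genes of the p53 response and of DNA replication spanned a similar range. BBC3, a pro-apoptotic BH3-only protein, had 35.3% and 44.3% at 0 h and 1.31% and 1.14% after 12 h (−0.376 ± 0.027, called under 4 h). RPS27L, a ribosomal protein paralog induced by p53, had 26.1% and 22.1% at 0 h and 24.1% and 25.01% after 12 h (0.003 ± 0.011, adjusted p = 0.835). TP53INP1 (−0.376 ± 0.049) fell without passing the test for 4 h, with 50% and 5.76% after 4 h, and FDXR had 13.0% and 17.8% at 0 h and 9.25% and 11.7% after 12 h (−0.030 ± 0.022, adjusted p = 0.230). Of 36 genes of DNA replication and S phase 31 fell (median −0.123), beside 71.4% falling and 1.63% called under 4 h over all tested genes. FEN1, the flap endonuclease, was the 1 called under 4 h, going from 44.2% and 41.9% through 19.6% and 19.6% after 4 h to 2.10% and 2.37% (−0.368 ± 0.019). CCNE2, cyclin E2, went from 50.9% and 56.0% to 4.12% and 2.16% (−0.343 ± 0.025), while RRM2 had 25.7% and 25% (−0.031 ± 0.016, adjusted p = 0.0959) and RFC4 29.4% and 33.7% after 12 h (−0.006 ± 0.019, adjusted p = 0.786).

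The median slope of the decay machinery itself lay below that of all genes. Of 50 tested genes of CCR4-NOT, deadenylation and decay 46 fell and 3 were called under 4 h, with a median slope of −0.185 (5.40 h). Over all tested genes 71.4% fell and 1.63% were called under 4 h, with a median slope of −0.139. TNRC6C, a partner of Argonaute, had 48.1% and 46.2% at 0 h, 21.4% and 6.05% after 2 h, 15.8% and 4.37% after 4 h, and 1.36% and 0.855% after 12 h (−0.407 ± 0.051, adjusted p for a half-life under 4 h = 0.139). ZFP36L2, a binder of AU-rich elements, had 29.8% and 28.5% at 0 h, 6.91% and 14.3% after 4 h, and 12.8% and 10.5% after 8 h. It ended at 0.668% and 0.269% after 12 h (−0.402 ± 0.056, adjusted p for a half-life under 4 h = 0.202). EDC3, an enhancer of decapping, had 19.4% and 21.3% at 0 h and 14.2% and 16.4% after 12 h (−0.017 ± 0.023, adjusted p = 0.526), and YTHDF1, an m6A reader, had 19.1% and 24.0% and then 18.1% and 16.3% (−0.039 ± 0.023, adjusted p = 0.144). Both were higher after 8 h than at 0 h in each replicate, EDC3 at 31.3% and 29.0% and YTHDF1 at 30.7% and 28.4%. Neither EDC3 nor YTHDF1 passed the slope test in either direction, and their courses were not flat in between.

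Of genes encoded in mitochondria, the 4 tested all fell, beside 71.4% of all tested genes. Their median slope was −0.194 (5.15 h), below the −0.139 of all genes. MT-ND4L, a complex I subunit, had 37.3% and 32.6% at 0 h, 37.9% and 32.5% after 2 h, 23.4% and 25.7% after 4 h, and 6.14% and 4.73% after 12 h (−0.239 ± 0.016). MT-ATP6, a subunit of ATP synthase, had 18.3% and 17.6% at 0 h, 23.8% and 23.1% after 4 h, and 8.18% and 8.25% after 12 h (−0.086 ± 0.022). MT-CO2 (−0.209 ± 0.016) and MT-ATP8 (−0.179 ± 0.018) lay between them. Whether reads of these genes could be told apart was not tested, so the 4 slopes may not belong to 4 separate mRNAs.

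Chaperones and splicing factors fell in most cases but more slowly. Over all tested genes 71.4% fell and 1.63% were called under 4 h, with a median slope of −0.139. Of 27 chaperonin and heat shock genes 24 fell (median −0.088, 11.4 h), and the inducible chaperone HSPA1B was the 1 called under 4 h, from 48.7% and 57.9% at 0 h to 1.08% and 0.573% after 12 h (−0.462 ± 0.028). HSPA1B has a near-identical copy in the genome, so how its reads were assigned is uncertain. DNAJB1, a partner of HSP70, had 17.8% and 16.4% at 0 h, 28.2% and 27.5% after 4 h, and 1.37% and 3.22% after 12 h (−0.262 ± 0.045). The prefoldin subunits PFDN5 and PFDN6 had slopes of 0.001 ± 0.020 and 0.004 ± 0.018 and did not pass the test. Of 68 splicing factors 59 fell and none was called under 4 h (−0.086, 11.6 h). HNRNPA0 went from 55.7% and 49.3% to 4.22% and 4.14% (−0.294 ± 0.013) and SF3B4 from 29.2% and 28.3% to 3.58% and 5.84% (−0.251 ± 0.025). SNRPD2, of the spliceosomal core, had 14.7% and 15.0% at 0 h and 14.8% and 15.0% after 12 h (0.001 ± 0.013), and HNRNPA1L3, which resembles other copies of HNRNPA1, had 0.031 ± 0.019.

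**Figure D3:**
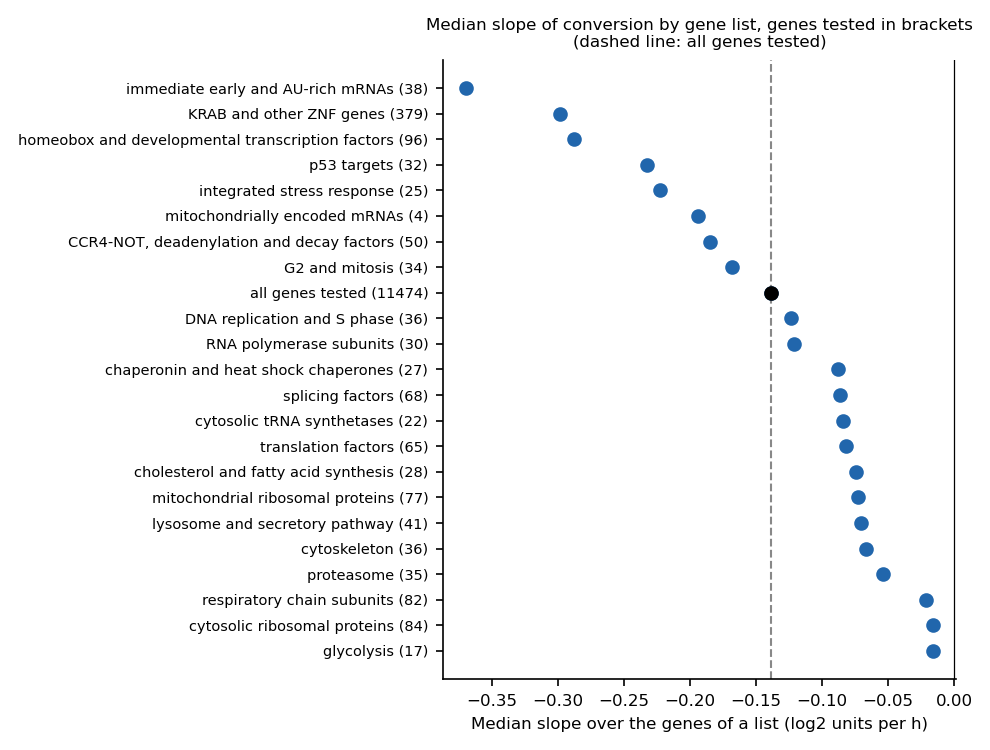
Median slope of conversion (log2 units per h) over the tested genes of 22 lists and over all tested genes (black, dashed line), with the number of genes in brackets. Immediate early and AU-rich mRNAs lie at −0.369, all genes at −0.139, and cytosolic ribosomal proteins and glycolysis at −0.016.

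The lists with slopes nearest to 0 were cytosolic ribosomal proteins, glycolysis and the respiratory chain. Of 84 cytosolic ribosomal protein genes 9 fell and none rose (median slope −0.016), against 71.4% falling over all tested genes, and the estimate exceeded 24 h or the slope was not below 0 in 78 of them. None passed the test for a half-life over 24 h (0.113% of all tested genes did), so a flat course was not shown for any one of them. Their conversion was also low throughout, with medians over genes of 14.5% at 0 h and 11.8% after 12 h. RPL10A had 15.8% and 14.1% at 0 h, 14.0% and 15.9% after 4 h, and 17.9% and 17.2% after 12 h (0.018 ± 0.013, adjusted p = 0.225). RPL7L1 and RPL26L1, which are paralogs of ribosomal proteins, had the lowest slopes of the list (−0.132 ± 0.023 and −0.064 ± 0.009), and RPL7L1 had 26.5% and 26.5% after 4 h and 7.35% and 7.25% after 12 h. Ribosomal protein genes have many processed copies, so their read assignment is uncertain.

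Of 82 nuclear-encoded subunits of the respiratory chain and ATP synthase 31 fell, 2 rose and 3 passed the test for a half-life over 24 h (median −0.021). Of 17 genes of glycolysis 5 fell and 1, LDHA, passed that test (median −0.016). COX7A2L and UQCRFS1 had the lowest slopes of the respiratory chain list among genes above 0 in all 12 libraries. COX7A2L fell from 49.4% and 44.4% at 0 h to 9.17% and 11.2% after 12 h (−0.181 ± 0.011). UQCRFS1, the Rieske protein of complex III, fell from 49.6% and 53.6% to 15.9% and 17.3% (−0.138 ± 0.010). NDUFB8, of complex I, had 5.25% and 5.34% at 0 h and 7.59% and 6.68% after 12 h (0.035 ± 0.020, adjusted p = 0.131). Over all tested genes 71.4% fell, 0.200% rose and 0.113% were called over 24 h.

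A half-life over 24 h was called for 13 genes by a one-sided test that the slope lay above −0.0417, and 9 of them were also called rising. Their median conversion was 19.5% and 19.7% at 0 h and 31.9% and 33.4% after 12 h. The other 4 passed the test for 24 h without being called rising. PRDX4, a peroxiredoxin of the secretory pathway, had 43.97% and 40.6% at 0 h, 43.6% and 47.5% after 1 h, 46.0% and 52.6% after 2 h, 48.7% and 45.7% after 4 h, 46.1% and 47.2% after 8 h, and 45.7% and 46.9% after 12 h (slope 0.005 ± 0.007, adjusted p for a half-life over 24 h = 0.0198). LDHA, lactate dehydrogenase A, had 30.9% and 28.9%, 32.5% and 33.2%, 31.8% and 35.9%, 31.3% and 33.3%, 36.0% and 32.6%, and 33.4% and 34.1% (0.009 ± 0.008). In all 13 genes both 12 h libraries lay above both 0 h libraries, as in 212 of the 11474 tested genes, which the test itself favours, and in PRDX4 and LDHA the means at these times differed by less than 5 percentage points. NDUFA7, of complex I, had 32.1% and 31.2% at 0 h and 37.8% and 36.8% after 12 h (0.018 ± 0.008). The fourth, ENSG00000167774, overlaps NDUFA7 and CD320 on the same strand (36.9% and 35.8% at 0 h, 42.6% and 42.4% after 12 h, higher than at 0 h with an adjusted p of 0.0215), so it and NDUFA7 may count the same reads. This count was 0 without either 12 h library, 2 without 0 h replicate 1, 5 without 0 h replicate 2 or 1 h replicate 1, and 6 without 8 h replicate 1.

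Conversion was called rising for 23 genes, against 8192 called falling. Their median went from 13.8% and 13.6% at 0 h through 18.8% and 16.7% after 4 h to 24.6% and 24.4% after 12 h. These were 0.200% of the tested genes. Without 12 h replicate 1, 13 of the 23 were still called, as were 13 without 12 h replicate 2. In 22 of the 23 both 12 h libraries lay above both 0 h libraries, against 212 of all 11474 tested genes, and the test itself selects for this. COA6, an assembly factor of complex IV (ENSG00000168275.16, chr1:234373456-234385080), had the smallest p. Its conversion was 16.0% and 17.9% at 0 h, 14.5% and 16.1% after 1 h, 20.3% and 12.0% after 2 h, 18.8% and 20.9% after 4 h, 28.9% and 35.7% after 8 h, and 31.9% and 33.4% after 12 h (slope 0.101 ± 0.018, adjusted p = 0.000367). The gain came between 4 h and 8 h in both replicates.

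Other rising genes named by the rule had these courses. TMEM223, a mitochondrial membrane protein, had 5.61% and 5.20% at 0 h, 9.15% and 10.2% after 4 h, and 15.4% and 16.2% after 12 h (0.144 ± 0.028, adjusted p = 0.000709). NDUFA11, of complex I, had 16.4% and 16.6% at 0 h and 23.3% and 21.8% after 12 h (0.036 ± 0.011, adjusted p = 0.0120), and it overlaps ENSG00000267740 on the same strand. GRPEL2, a nucleotide exchange factor of mitochondrial HSP70, had 6.62% and 8.62% at 0 h, 27.2% and 30.3% after 4 h, 29.3% and 31.4% after 8 h, and 19.5% and 24.4% after 12 h (0.127 ± 0.039). Its course was thus a steep rise to 4 h and a decline after 8 h rather than a line. Among the others, FLAD1, FAD synthase, had 8.11% and 6.78% at 0 h, 3.48% and 3.63% after 1 h, and 19.3% and 19.1% after 12 h (0.141 ± 0.035). ACOT7, an acyl-CoA thioesterase, had 19.5% and 21.6% at 0 h and 28.9% and 33.1% after 12 h (0.035 ± 0.012).

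The remaining rising genes were more erratic. TSSK3, a kinase of the testis, had 2.04% and 9.41% at 0 h, was listed at 0 in both 1 h libraries, and had 7.89% and 1.43% after 2 h, 38.2% and 5.68% after 4 h, 75.0% and 17.0% after 8 h, and 100% and 88.9% after 12 h (0.517 ± 0.116, adjusted p = 0.00172). MKKS, a chaperonin-like protein whose annotation holds overlapping entries of that name, had 13.1% and 10.3% at 0 h and 40.0% and 25.6% after 12 h (0.118 ± 0.027), and C6orf52 had 13.8% and 13.6% and then 37.5% and 36.2% (0.104 ± 0.021). GARIN2 had 15.9% and 31.0% at 0 h, 40.7% and 12.8% after 1 h, and 63.6% and 64.3% after 12 h (0.118 ± 0.040). GDF1, a ligand of the TGF-β family, overlaps CERS1 on the same strand (1.59% and 0.971% at 0 h, 8.33% and 15.2% after 12 h), and P2RY11, a purinergic receptor, overlaps PPAN (4.97% and 5.20%, then 11.8% and 16.0%), so reads of these neighbours cannot be told apart here.

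Changes against 0 h were also tested at each time, in a fit with 6 group means whose contrasts share both 0 h libraries. No gene passed at 1 h or 2 h (percent called 0). At an unadjusted p under 0.05, limma gave 67 lower and 99 higher genes at 1 h, and 1592 lower and 112 higher at 2 h. At 4 h 1389 genes were lower (12.1%) and 15 higher (0.131%), at 8 h 4078 lower (35.5%) and 37 higher (0.322%), and at 12 h 7838 lower (68.3%) and 21 higher (0.183%). Without 2 h replicate 1, 606 genes were lower at 2 h, but that time then held 1 library, which the fit assumes to vary like the other times. At 4 h the count of lower genes was 0 without either 0 h library, 141 and 146 without the 1 h libraries, 161 without 4 h replicate 2, 892 and 896 without the 8 h libraries, and 2168 and 2140 without the 2 h libraries. At 8 h it was 1777 without 0 h replicate 1, 2340 without 0 h replicate 2, 2383 without 8 h replicate 1 and 2647 without 8 h replicate 2.

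The genes that were higher than at 0 h changed with the time. Of the 15 higher at 4 h, 7 were called falling over the whole chase and 1 rising, and their medians were 12.8% and 15.9% at 0 h, 31.7% and 32.3% after 4 h, and 10.9% and 12.8% after 12 h. Of the 21 higher at 12 h, 15 were called rising. The 15 higher at 4 h were LSM1, GRPEL2, PTRH2, RHOV, PUS3, RPP38, ZNF622, YTHDF2, E2F6, MRPL18, MED11, UBE3A, CCDC106, GNL3 and RDH11, among which GNL3 is a nucleolar GTPase, RPP38 a subunit of RNase P and MRPL18 a mitochondrial ribosomal protein. All 15 names are given because the count is small, and those outside the naming rule were picked with their values in view. The count at 4 h was 0 without either 0 h library, 5 and 6 without the 1 h libraries, 3 without 4 h replicate 2 and 23 without 2 h replicate 1. The count higher at 8 h was 16 and 15 without the 0 h libraries, 24 without 1 h replicate 2 and 8 without either 8 h library, and that at 12 h was 11 without 0 h replicate 2.

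A single line did not describe every gene. A fit with 1 slope from 0 to 4 h and another from 4 to 12 h called a late slope above the early slope for 49 genes (0.427%) and below it for 84 (0.732%). All 49 had an early slope below 0, 40 had a late slope above 0, and in 5 both 12 h libraries lay below both 4 h libraries. Their medians were 55.1% and 50% at 0 h, 24.8% and 12.3% after 2 h, 6.18% and 6.18% after 4 h, 11.3% and 9.75% after 8 h, and 10.5% and 12.6% after 12 h. In 33 of the 49 both 12 h libraries lay above both 4 h libraries, against 652 (5.68%) of all tested genes. Of the 84, 67 had an early slope above 0 and none a late slope above 0, and in 9 both 4 h libraries already lay below both 0 h libraries. Their medians were 32.0% and 29.7% at 0 h, 37.1% and 38.4% after 2 h, 37.5% and 37.0% after 4 h, 19.3% and 19.5% after 8 h, and 7.32% and 7.85% after 12 h. In 47 of the 84 both 4 h libraries lay above both 0 h libraries, against 386 (3.36%) of all tested genes. The test used these values, so the shares describe the 2 shapes and do not support them. With the replicate number as a block 5 genes were called above and 4 below. Both counts also depended on single libraries, with none above without 0 h replicate 1, 4 h replicate 2 or either 12 h library, 1 without 0 h replicate 2 or either 1 h library, 10 without 4 h replicate 1, 15 without 8 h replicate 2 and 75 without 8 h replicate 1. Those below were 0 without 0 h replicate 1, 4 h replicate 2 or either 12 h library, 3 to 7 without 0 h replicate 2, either 1 h library or 4 h replicate 1, and 29 to 40 without 8 h replicate 2 or either 2 h library.

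Among the genes with a late slope above the early slope, KIF14, a mitotic kinesin, had 81.2% and 56.5% at 0 h, 50.9% and 54.9% after 1 h, 21.6% and 11.8% after 2 h, 5.26% and 7.14% after 4 h, 7.06% and 5.61% after 8 h, and 6.05% and 5.47% after 12 h (late minus early slope 0.89 ± 0.12, adjusted p = 0.0349). USP15, a deubiquitinase, had 55.6% and 51.3% at 0 h, 4.17% and 4.80% after 4 h, 7.20% and 9.26% after 8 h, and 3.99% and 5.42% after 12 h (0.85 ± 0.13). In both, the values at 4 h and at 12 h overlapped. C3orf62 had 45.5% and 32.3% at 0 h, 2.52% and 4.12% after 4 h, and 6.71% and 9.72% after 12 h (1.00 ± 0.11), and it overlaps USP4. GRAMD1C, a sterol transporter, had 44.1% and 40.9% at 0 h, 0% and 1.69% after 4 h, and 25.7% and 32.5% after 12 h (2.06 ± 0.29), so its conversion at 12 h was above the median of all tested genes.

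The 4 genes named for the opposite shape were LSM1, YTHDF2, PTRH2 and GRPEL2. LSM1, of the ring that activates decapping, had 22.96% and 16.6% at 0 h, 30.3% and 30.2% after 1 h, 42.3% and 40.3% after 2 h, 49.2% and 45.5% after 4 h, 25.04% and 25.4% after 8 h, and 10.3% and 9.76% after 12 h (late minus early −0.61 ± 0.07, adjusted p = 0.0204). YTHDF2, an m6A reader that recruits CCR4-NOT, had 17.6% and 16.7%, 20.6% and 15.6%, 28.2% and 24.3%, 33.8% and 37.6%, 23.1% and 20.6%, and 10.9% and 12.8% (−0.48 ± 0.06). In both genes the 4 h values lay above all others and the replicates stayed close at 2 h and 4 h. PTRH2, a mitochondrial peptidyl-tRNA hydrolase, had 12.3% and 9.58% at 0 h, 38.6% and 40.2% after 4 h, and 4.85% and 5.05% after 12 h (−0.80 ± 0.10). GRPEL2, already given as rising, was the fourth (−0.56 ± 0.07). A straight line gave LSM1, PTRH2 and YTHDF2 slopes of −0.104, −0.137 and −0.046, which describe neither part of their course.

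**Figure D4:**
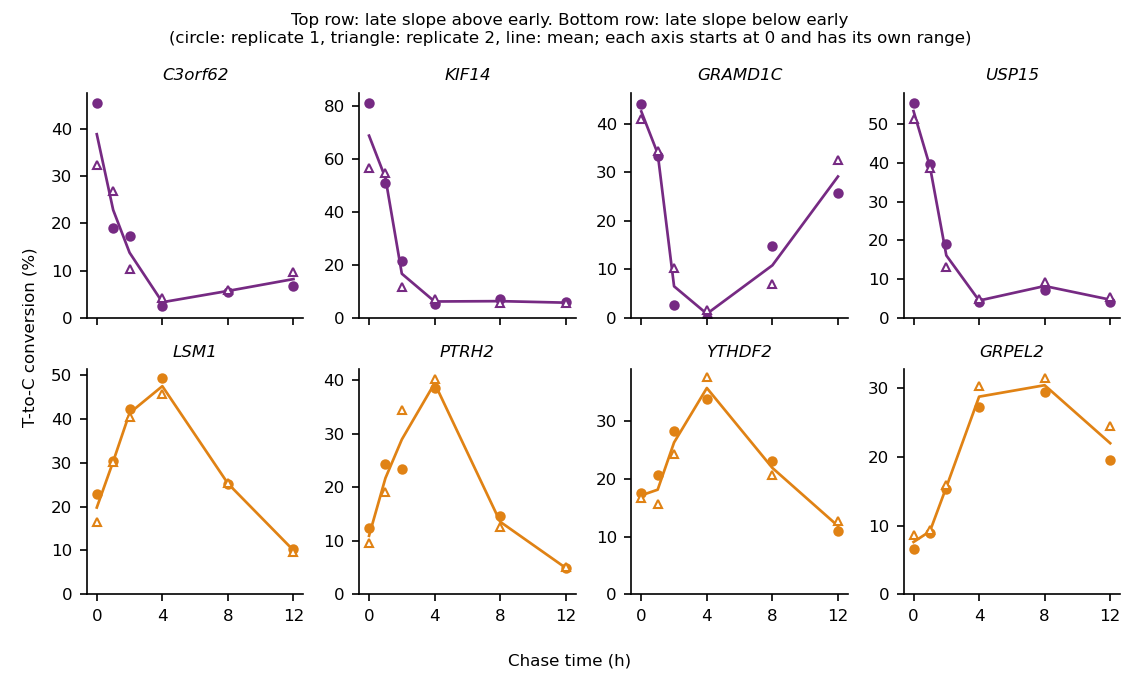
T-to-C conversion (percent, each axis from 0 with its own range) against chase time (h) for 4 genes with a late slope above the early slope (top row) and 4 with a late slope below it (bottom row), with replicate 1 as circles, replicate 2 as triangles and the mean as a line. KIF14 reaches 5.26% and 7.14% after 4 h and is at 6.05% and 5.47% after 12 h, while LSM1 climbs from 22.96% and 16.6% to 49.2% and 45.5% after 4 h before it falls.

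The replicates matched poorly at 2 h and 4 h. The Spearman correlation of replicate 1 with replicate 2 across genes was 0.715 at 0 h, 0.739 at 1 h, 0.309 at 2 h, 0.494 at 4 h, 0.647 at 8 h and 0.708 at 12 h. Among the 10109 genes above 0 in all 12 libraries it was 0.363 at 2 h and 0.571 at 4 h, and at least 0.708 at the other times, so the poor match was not confined to genes with a value at 0. The share of genes whose replicates were more than 2-fold apart on the pseudocount scale was 8.79% at 0 h, 6.55% after 1 h, 32.8% after 2 h, 25.9% after 4 h, 19.1% after 8 h and 22.2% after 12 h. The gap had a direction, with replicate 1 higher in 3559 such genes and replicate 2 in 209 at 2 h, and with 2367 and 605 at 4 h. At 2 h replicate 2 correlated more with both 4 h libraries (0.466 and 0.660, replicates 1 and 2) and both 8 h libraries (0.359 and 0.504) than with its own partner (0.309). Replicate 1 at 2 h correlated most with the 1 h libraries (0.624 and 0.611). These correlations are across genes and describe the libraries only.

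The change against each replicate's own 0 h library showed the same split. The median log2 change at 2 h was −0.23 in replicate 1 and −0.58 in replicate 2, and at 4 h it was −0.60 and −0.74. At 8 h the values were −0.90 and −0.86, and at 12 h −1.89 and −1.56. Replicate 2 was thus ahead at 2 h and behind at 12 h. Which guide each replicate carried is not known, and whether the libraries at 2 h were taken at the labelled time was not tested.

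The gap was larger for genes that cover more of the genome. With the tested genes in quartiles by gene span, the median log2 difference of replicate 1 minus replicate 2 at 2 h was 0.12 in the shortest quartile (median span 6947 bases), 0.26 and 0.47 in the next 2, and 0.85 in the longest (median span 134286 bases). At 4 h it was 0.03, 0.09, 0.20 and 0.40, at 0, 1 and 8 h it lay between −0.02 and 0.10 in every quartile, and at 12 h it was −0.11, −0.17, −0.19 and −0.21, so replicate 2 was then the higher and more so among long genes. In the longest quartile median conversion was 37.5% and 37.1% after 1 h, 30.0% and 15.1% after 2 h, and 19.1% and 12.6% after 4 h. In the shortest quartile it was 30.7% and 30.2%, 26.9% and 20.04%, and 21.6% and 18.7%. The split by span was chosen after the data had been seen. Span was not the feature the 2 h gap moved with most, since its Spearman correlation with the gap across genes was 0.240, beside 0.319 for transcript length, 0.263 for 3′ UTR length and 0.323 for conversion at 0 h.

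**Figure D5:**
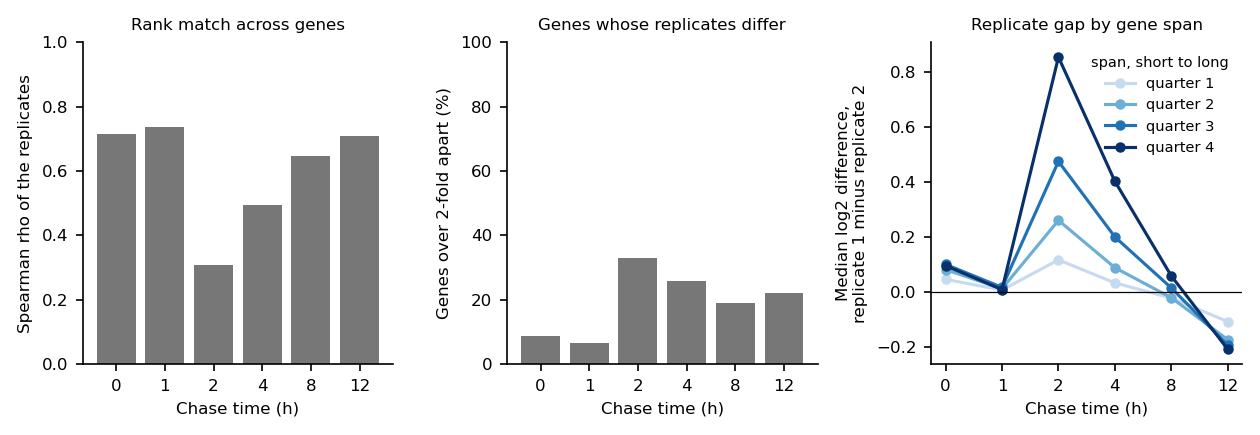
Match of replicates by chase time (h): Spearman correlation across genes (left), percent of genes more than 2-fold apart (middle), and median log2 difference of replicate 1 minus replicate 2 for 4 quartiles of genes by gene span (right). The correlation drops to 0.309 (2 h) and 0.494 (4 h), and at 2 h the difference grows from 0.12 in the shortest quartile to 0.85 in the longest.

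Single genes show the gap most plainly. Among 2444 genes whose replicates differed by at most 5 percentage points at 0, 1, 8 and 12 h, 26.6% differed by more than that at 2 h (replicate 1 higher in 455, replicate 2 in 194) and 20.1% after 4 h (300 and 191), and in 161 replicate 1 was higher at both times. TMEM185B, a membrane protein, had 37.8% and 35.9% after 1 h, 33.6% and 4.46% after 2 h, 26.9% and 14.2% after 4 h, and 8.07% and 11.4% after 8 h. ITSN1, an endocytic scaffold, had 13.9% and 18.2%, 16.5% and 2.22%, 16.1% and 7.05%, and 7.30% and 6.86% at these times, and STXBP2, which overlaps another gene, had 10.7% and 1.39% after 2 h. The rule named these genes for their gap, so they are examples and not a sample.

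At 4 h BRMS1L, of a histone deacetylase complex, had 49.3% and 3.92% after 19.5% and 6.88% after 2 h. YTHDC2, an RNA helicase, had 7.95% and 0.240% after 4 h. The opposite order was rarer, as the counts above show. EFCAB7 had 5.88% and 22.2% after 2 h, ATAD3B, of the mitochondrial inner membrane, had 3.79% and 11.7%, and TEN1, of the telomeric CST complex, which overlaps TEN1-CDK3 on the same strand, had 4.72% and 17.2%. At 4 h IGFBP2 had 1.24% and 5.98%, TDRD7 5.92% and 23.5%, and MACROD1 1.27% and 4.81%.

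Features of the transcripts that the choice of members did not use varied along the decay order. Across 11473 genes with a GENCODE transcript (11451 for ATTTA per kb and GC in the 3′ UTR) the Spearman correlation with the slope was −0.400 for transcript length, −0.317 for 3′ UTR length, −0.318 for coding length, −0.243 for gene span and −0.298 for ATTTA pentamers per kb of 3′ UTR, so longer and more AU-rich messages fell faster. It was 0.240 for GC at the third codon position and 0.267 for GC in the 3′ UTR. For the share of T in the 3′ UTR, over 11451 genes, it was −0.285. Conversion is itself counted at T, and the part of T content in these trends was not tested. These features are correlated with each other and no p is given, since genes are not independent replicates. The share of CGG, CGA and AGG codons had a correlation of 0.113, the other arginine codons CGC, AGA and CGT −0.015, and codons for asparagine, lysine, isoleucine, tyrosine, phenylalanine, methionine and ACT −0.048. Conversion at 0 h had a correlation of −0.596 with the slope, but both share the 0 h libraries.

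Gene span went with the early slope more than with the late slope. It had a correlation of −0.335 with the slope from 0 to 4 h and of −0.047 with the slope from 4 to 12 h, and median early slopes in the quartiles by span were −0.084, −0.128, −0.203 and −0.307, against late slopes of −0.084, −0.118, −0.125 and −0.125. The 49 genes with a late slope above the early slope had a median span of 70598 bases and 13 exons, and the 84 with the opposite shape 11426 bases and 4.5 exons, beside 33216 bases and 9 exons over all genes. The replicate gap at 2 h and 4 h moved with span too, and its part in the early slopes was not tested.

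The genes called under 4 h differed from the median gene in their 3′ UTRs. Their median 3′ UTR length was 1804 bases against 1351 over all tested genes with a 3′ UTR, and 123 bases in the 23 rising genes. On the mRNA strand, ATTTA was found in the 3′ UTR of 90.4% of genes called under 4 h and of 73.9% of all genes, the heptamer TATTTAT (which contains ATTTA) in 55.6% and 36.0%, and the Pumilio-like motif TGTANATA in 48.7% and 30.4%. Longer UTRs hold more of any motif, and per kb the values were 2.78 and 2.31 for ATTTA, 0.425 and 0.321 for TATTTAT and 0.371 and 0.236 for TGTANATA. In the rising genes, 3 of which held TATTTAT, the values per kb were 2.44 for ATTTA and 0.385 for TATTTAT. From the fastest to the slowest quartile of slopes, TATTTAT was found in 52.4%, 44.9%, 30.6% and 16.0% of 3′ UTRs. Median 3′ UTR length also fell over these quartiles, from 2012 bases in the fastest to 664 in the slowest. Per kb the heptamer values were 0.393, 0.352, 0.264 and 0.192. Genes with a single exon were 9.09% of those called under 4 h and 2.03% of all genes, among them JUN and IER5 whose heptamers are printed above.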

How the data were processed

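The authors deposited 1 table of T-to-C conversion for each gene in each library, as a fraction between 0 and 1, made from 3′ end libraries (QuantSeq FWD) of RNA treated with iodoacetamide. The submitters' processing notes name GRCh38 and bcl2fastq. Not given in the sources used here: the aligner, the conversion caller, the annotation, and whether the fraction counts reads or single T positions. Of the 24 libraries, the 12 columns of sgNT were not used. A T read as C for another reason also counts, and no unlabelled library was used here.

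Slopes, changes against 0 h and late minus early slopes (break at 4 h) were fitted to log2(conversion + pseudocount) with limma 3.58.1 (R 4.3.3, trend on) over 11474 genes above 0 in at least 10 of 12 libraries. The pseudocount was 0.351 percentage points, 1% of the median at 0 h, and fold changes on this scale understate changes of low genes. Tests against 0 were two-sided, those against half-lives of 4 h and 24 h one-sided, with Benjamini-Hochberg adjustment and a threshold of 0.05. Errors are SE. The fits were tested on simulated data with independent errors and a flat course in most genes. Such data lack the falling majority and the library shifts seen here, so they do not show how the calls behave in these libraries. The limits of 4 h and 24 h are slopes of −0.25 and −0.0417.

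The members, the 22 gene lists and the tests were chosen with earlier results of these data known. Named genes were CNOT3, the 12 smallest p values under 4 h and the 12 rising (same sign in both replicates), up to 8 over 24 h not rising, the 2 lowest and 2 highest slopes of a list among genes above 0 in all 12 libraries, the 3 largest replicate gaps each way at 2 h and at 4 h, and the 4 smallest p values of each late against early direction. Some items that these rules name are not reported here. List examples are given for 10 lists, chosen after the results were seen, as were the features by gene span. Transcripts came from GENCODE release 44, in which 12448 of the members had an entry (matched on gene ID without version). Alternatives were pseudocount, filter, centring, trend, replicate block, left-out libraries and shorter time ranges. Python 3.11.15, pandas 2.3.3, numpy 2.4.6 and matplotlib 3.10.9 were used.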

Additional observations from a re-analysis of the deposited data

How the results depend on the processing

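The falling count was 7154 to 8470 genes when any 1 library was left out, and the rising count was 17 to 26. The rising genes themselves changed more than their count. Of the 23, 13 were still called without 12 h replicate 1 and 13 without 12 h replicate 2. With 0 to 8 h only, 7 of the 23 were still called, and with 0 to 4 h only 1 was. Without 1 library the count under 4 h was 102 to 272, that over 24 h 0 to 13, lower at 2 h 0 to 606, lower at 4 h 0 to 2168, lower at 8 h 1777 to 4558, higher at 2 h 0 to 5, higher at 4 h 0 to 23, higher at 8 h 8 to 41, higher at 12 h 11 to 28, late above early 0 to 75 and late below early 0 to 64. With a pseudocount 10 times larger, 0 genes were called under 4 h and 75 over 24 h, 2270 were lower and 24 higher at 4 h, and 173 had a late slope above the early one. With a pseudocount 10 times smaller, 2 genes were lower at 2 h. Without the filter on zeros, 9 genes were lower at 1 h and 30 at 2 h, and late slopes were above in 30 and below in 53, while among genes above 0 in all 12 libraries 116 were called under 4 h. Without the trend option 30 were called over 24 h and 44 had a late slope below the early one. Without both 4 h libraries 6 were called over 24 h. Without the 2 h and 4 h libraries 316 were called under 4 h, of which 153 were among the 187, and 1 over 24 h. With 0 to 4 h only, the median slope was −0.197, 2956 genes fell, 23 were called under 4 h (2 of the 187) and 0 over 24 h, and with 0 to 8 h only the numbers were 5202, 44 and 0. Fits on fewer hours have fewer libraries and less room for the slope.

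Centring each library on its median makes slopes relative to the median gene, so its counts answer another question. The median slope turned to 0.010, with 2458 genes falling, 3218 rising, 0 under 4 h and 4963 over 24 h. Lower and higher counts were 17 lower at 4 h, 632 lower and 728 higher at 8 h, and 1979 lower and 2650 higher at 12 h, and late slopes were above in 83 and below in 178. The labels do not say whether the replicate numbers pair the samples. Of 15 pairs of chase times 2 had a correlation of same-numbered deviations above 0.1 (range −0.04 to 0.19). These were 2 h with 4 h (0.19) and 2 h with 8 h (0.11), and such correlations do not settle whether samples were paired. With the replicate number as a block, 8168 genes fell, 22 rose, 182 were called under 4 h and 11 over 24 h, and late slopes were above in 5 and below in 4.

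Of 2035 slopes of 85 named genes under 24 alternatives, 83 turned sign. With libraries centred, slopes turned to 0.038 (CNOT3), 0.106 (TEN1), 0.115 (ATAD3B), 0.012 (ITSN1), 0.044 (LSM1), 0.012 (PTRH2), 0.102 (YTHDF2), 0.010 (UQCRFS1), 0.017 (RPL7L1), 0.062 (MT-ATP6), 0.084 (RPL26L1), 0.109 (YTHDF1), 0.117 (RRM2), 0.119 (FDXR), 0.132 (EDC3), 0.143 (RFC4) and 0.147 (ZNF205). With 0 to 4 h only they turned to −0.069 (GARIN2), −0.010 (NDUFA7), −0.185 (IGFBP2), −1.510 (GRAMD1C), 0.302 (LSM1), 0.426 (PTRH2), 0.280 (YTHDF2), 0.163 (DNAJB1), 0.220 (SOX4), 0.075 (RPL7L1), 0.101 (MT-ATP6), 0.118 (YTHDF1), 0.040 (EDC3), 0.343 (ZNF205), −0.059 (PFDN5), −0.029 (ZNF90) and −0.0092 (NDUFB8). With 0 to 8 h only they turned to −0.015 (STXBP2), −0.016 (IGFBP2), −0.306 (GRAMD1C), 0.019 (LSM1), 0.0018 (PTRH2), 0.051 (YTHDF2), 0.028 (SOX4), 0.031 (YTHDF1), 0.067 (EDC3), 0.018 (RFC4), 0.058 (ZNF205) and −0.023 (PFDN5). Without both 2 h libraries they turned to −0.030 (GRAMD1C), 0.014 (ZNF205) and −0.0020 (ZNF90). Without both 4 h libraries they turned to −0.021 (GRAMD1C) and 0.0011 (ZNF205). Without the 2 h and 4 h libraries they turned to −0.080 (GRAMD1C), 0.022 (ZNF205), −0.00054 (PFDN5) and −0.0031 (ZNF90). With the larger pseudocount the slope turned to −0.012 (GRAMD1C). When 1 library was left out, the slopes that could turn ran from −0.028 to 0.0082 (EDC3), −0.081 to 0.050 (GRAMD1C), −0.0080 to 0.0063 (PFDN5), −0.0067 to 0.029 (PFDN6), −0.014 to 0.0048 (RFC4), −0.0031 to 0.010 (RPS27L), −0.00056 to 0.0035 (SNRPD2), −0.036 to 0.017 (ZNF205) and −0.00058 to 0.0052 (ZNF90). Depth is unknown, so it could not be said which of these values rest on few reads.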

Other observations

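The counts of the other gene lists stand beside 71.4% falling and a median slope of −0.139 over all tested genes. Of 34 genes of G2 and mitosis 33 fell (median slope −0.168, 5.96 h), and of 30 RNA polymerase subunits 24 fell (−0.121, 8.25 h). Messages of protein synthesis were slower, with 19 of 22 cytosolic tRNA synthetases (−0.085, 11.8 h), 49 of 65 translation factors (−0.082, 12.1 h) and 61 of 77 mitochondrial ribosomal proteins (−0.073, 13.7 h) falling. Of 28 genes of cholesterol and fatty acid synthesis 21 fell (−0.075, 13.4 h), of 41 of the lysosome and secretory pathway 29 (−0.071, 14.2 h), of 36 cytoskeletal genes 26 (−0.067, 14.9 h) and of 35 proteasome subunits 26 (−0.054, 18.5 h). In none of these lists was a gene called rising, under 4 h or over 24 h. Over all tested genes these shares were 0.200%, 1.63% and 0.113%, so few calls could be met in lists of this size.

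Of all members, 558 were listed at 0 in both 12 h libraries, of which 85 were tested. The number of members listed at 0 grew from 182 and 206 after 1 h to 387 and 517 after 2 h, 656 and 789 after 4 h, 868 and 402 after 8 h, and 1281 and 1016 after 12 h, so that 8 h replicate 1 held more zeros than its partner while their medians were close (16.5% and 15.4%). A further 1699 genes were above 0 in only 1 of the 0 h libraries and 5650 in neither, and these were not members.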
